A study of Rattus norvegicus with 24 samples.

Results

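Rat spinal cord 56 days (8 weeks) after clip compression was compared with cord 7 days (1 week) after it, on 8 of the 24 arrays of the series and across 14218 genes. The arrays were taken by their titles, 4 of cords sampled at 8 weeks and 4 of cords sampled at 1 week, and each array holds the RNA of 1 female Wistar rat. All 8 rats had a laminectomy and an aneurysm clip of 35 g closed on the thoracic cord for 1 min, the sample was a short piece of cord around the epicenter, and by the methods every operated rat received amoxicillin with clavulanic acid for the first 7 days, which ended as the day 7 group was sampled. Each rat gave 1 sample, and the days are separate animals. The other arrays hold sham-operated rats, for which no day of sampling was found in the labels or the methods, and rats sampled on days 1, 3 and 14, with 4 rats in each group.

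A compressed cord passes through a phase of dividing cells and new matrix and then into a long phase of scar. In the first weeks, glial cells, blood vessel cells, fibroblasts and phagocytes multiply in and around the lesion, and fibroblasts lay down a provisional matrix with proteins such as periostin and tenascin C. Later the lesion is walled off by astrocytes, phagocytes loaded with myelin lipid stay in place, and spared oligodendrocytes and their precursors repair part of the myelin. Cholesterol, which myelin needs in large amounts, is made in the cord itself by the mevalonate pathway, and cells that hold much sterol switch that pathway off.

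Values are log2 levels, so that a difference of 1 is a 2-fold change, and every difference is day 56 minus day 7. Of the 14218 genes, 963 (6.77%) differed with an adjusted p under 0.05 in limma (Benjamini-Hochberg): 283 (1.99%) were higher and 680 (4.78%) lower on day 56. A difference of at least 1 as well was held by 136 higher (0.957%) and 195 lower genes (1.37%). Where the 8 arrays of the 2 days were fitted alone, 255 genes differed (77 higher, 178 lower), and 100 of them by at least 1. The direction of the small differences depended on the scaling: 29.4% of the called genes were higher, against 41.1% after quantile normalization of all arrays and 15.5% after each array was centred on its median. Among genes with a difference of at least 1 these shares were 41.1%, 44.7% and 31.9%. The median gene differed by 0.027, and by −0.004 and −0.053 under these scalings. Without reference to any test, the 4 values of day 56 lay above all 4 of day 7 in 14.8% of the genes and below all of them in 7.28%.

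**Figure D1:**
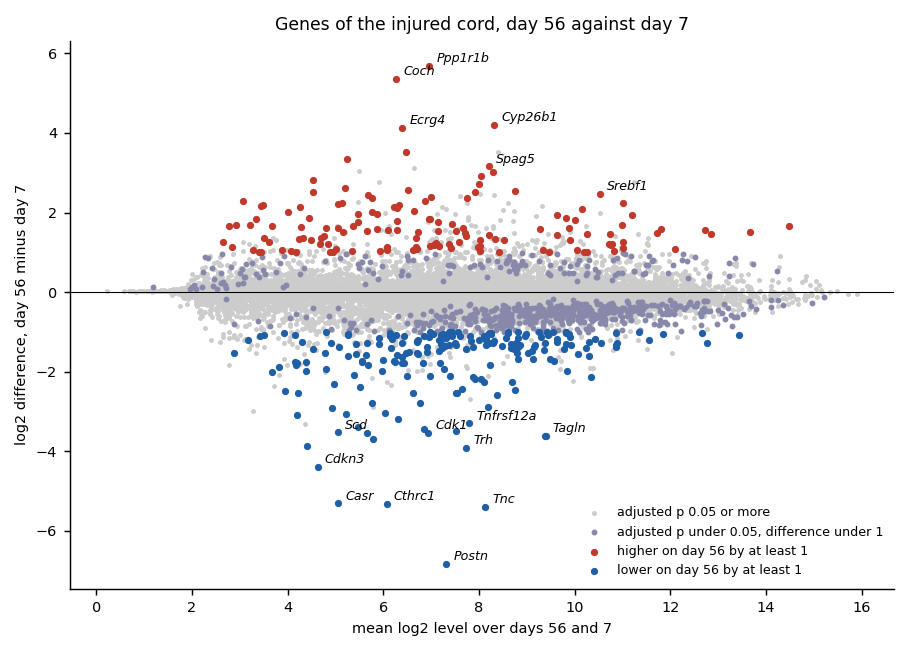
Log2 difference of each gene, day 56 minus day 7 (vertical axis), against its mean log2 level over both days (horizontal axis). Red points are the 136 genes higher by at least 1 with an adjusted p under 0.05, blue points the 195 genes lower by at least 1, and purple points the genes called with a smaller difference, most of which lie below 0. Postn lies lowest at −6.82 and Ppp1r1b highest at 5.69.

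The day 56 arrays resembled one another more than the day 7 arrays did. The median SD of a gene was 0.121 within day 56 and 0.179 within day 7, and the lowest correlation between arrays of a group was 0.991 on day 56 and 0.973 on day 7. Day 7 replicates 2 and 3 lay at opposite ends of several lists: the mean level of 24 microglia and macrophage genes was 11.06 in replicate 2 and 9.79 in replicate 3, and that of 39 neuronal genes was 6.64 and 8.42. Without these 2 arrays 712 genes differed, of which 597 are among the 963, and 151 of the 712 were higher. Of the called genes named here, 24 did not pass without them: Agt, Apln, C1qc, Ccn3, Col4a1, Col4a2, Cxcl14, Dynlrb2, Efemp1, Foxj1, Gpi, Igfbp2, Inhba, Lcat, Lox, Nr1d2, Ntrk2, Per2, Pgam1, Ptgds, Slc16a1, Sox10, Timp3 and Timp4. The 27 control probe sets with no target in rat averaged 2.68 to 2.81 on day 56 and 2.63 to 2.70 on day 7 (exact two-sided permutation p = 0.0571), and the highest of them averaged 3.19 and 3.06. A gene at or below that level on 1 day has a difference whose size is not exact. The 3′ minus 5′ difference of the GAPDH control probe sets was 0.04 to 0.11 on day 56 and −0.04 to 0.04 on day 7 (exact two-sided permutation p = 0.0286, the smallest that 4 against 4 arrays allow), and that of actin was 1.18 to 1.33 and 0.95 to 1.25 (p = 0.114). Their part in the results was not tested. The tissue carried the markers of cord on both days: Gfap, the astrocyte filament gene, was at 14.78 to 15.04 on day 56 and 14.24 to 14.90 on day 7, and Mbp, which encodes myelin basic protein, was at 14.96 to 15.08 and 14.93 to 15.26. Chat, which marks cholinergic motor neurons, was at the level of the control probe sets on both days (mean 2.51 and 2.47).

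Genes of DNA replication and mitosis were the group with the most members lower on day 56. Of 60 genes in this list 54 were measured, 26 were lower with an adjusted p under 0.05, 24 of these by at least 1, and 0 were higher (limma; 0 higher also at an unadjusted p under 0.05, by the ordinary t of the linear model and in the fit of the 8 arrays alone). The median of the 54 genes was −1.21, against 0.027 for all genes, and 25 of them had day 56 values below all day 7 values. In bulk tissue, fewer cells of a type and less RNA per cell cannot be told apart.

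Many genes of this kind share short letters ahead of their start. Cell cycle promoters often carry CCAAT boxes, which NF-Y binds, and the sequence TTTGAA, known as the cell cycle genes homology region, through which the genes are shut off in resting cells. From the list, 5 genes with large differences were picked by hand, and all 5 hold both sequences. Racgap1 and Ccna2 differed by more than Mki67 (−3.08 and −3.03, against −2.89) and are not shown. The stretch just ahead of the RefSeq start of the 5 genes is given here, so that the shared letters can be seen. It is from the build GRCr8, written 5′ to 3′ on the strand of the gene, with CCAAT and TTTGAA and with their reverse complements ATTGG and TTCAAA in capitals.
Ccnb2 (chr8:79981659-79981803, minus strand): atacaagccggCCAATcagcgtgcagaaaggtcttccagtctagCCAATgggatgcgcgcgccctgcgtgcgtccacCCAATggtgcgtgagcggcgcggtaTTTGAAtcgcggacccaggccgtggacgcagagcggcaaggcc
Cdk1 (chr20:19265148-19265292, plus strand): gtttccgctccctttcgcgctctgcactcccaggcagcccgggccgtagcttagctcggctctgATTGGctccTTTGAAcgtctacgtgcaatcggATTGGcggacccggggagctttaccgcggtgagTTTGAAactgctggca
Cks2 (chr17:13727520-13727664, minus strand): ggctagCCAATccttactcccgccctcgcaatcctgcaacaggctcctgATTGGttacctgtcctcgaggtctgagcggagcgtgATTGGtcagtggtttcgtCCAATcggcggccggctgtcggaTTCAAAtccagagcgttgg
Mki67 (chr1:199952594-199952738, minus strand): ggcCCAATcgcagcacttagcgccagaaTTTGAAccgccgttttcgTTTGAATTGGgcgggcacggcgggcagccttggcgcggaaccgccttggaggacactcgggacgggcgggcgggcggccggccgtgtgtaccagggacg
Prc1 (chr1:143659336-143659480, plus strand): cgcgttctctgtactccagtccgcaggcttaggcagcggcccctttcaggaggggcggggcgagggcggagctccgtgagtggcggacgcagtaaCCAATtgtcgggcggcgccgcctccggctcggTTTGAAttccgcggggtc
In Mki67 the second TTTGAA shares its last base with the ATTGG that follows it. Ccnb2 shows 3 CCAAT boxes and a TTTGAA 43 bases ahead of the start, and Prc1 shows 1 of each, at 50 and 18 bases ahead of it. A match of letters is a description and not a site of binding. Over the 250 bases ahead of the start, CCAAT stood on either strand in 32 of the 47 listed genes with a promoter in the table (68.1%), against 34.3% of all RefSeq promoters and 35.1% of those of genes on the array. TTTGAA stood in 13 of the 47 (27.7%), against 16.0% and 10.9%. Among the 22 genes that were lower on day 56, 16 held CCAAT, 8 TTTGAA and 8 both (36.4%), so that the 5 shown are not typical. Among the 25 that did not pass the test 16 held CCAAT and 5 TTTGAA. The letters were thus also present in genes of the list that were not called.

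Cdk1, the kinase that starts mitosis, was at 5.42, 4.99, 4.61 and 5.71 in the 4 rats of day 56, against 8.87, 9.97, 7.08 and 8.92 on day 7, a difference of −3.53 (SE 0.40, adjusted p = 3.63e-05 in limma). Ccnb2, the cyclin B2 that partners it, was at 5.50, 5.01, 4.81 and 5.17 on day 56, against 8.59, 10.01, 6.70 and 8.98 on day 7 (−3.45, SE 0.48, adjusted p = 0.00029 in limma). Mki67, which encodes the proliferation antigen Ki-67, was at 7.57, 6.30, 6.97 and 6.18 on day 56, against 9.69, 10.95, 8.26 and 9.67 on day 7 (−2.89, SE 0.44, adjusted p = 0.000596 in limma). In all 3 genes the groups did not overlap, day 7 replicate 2 was the highest array and day 7 replicate 3 the lowest of its group. Cks2, which binds the mitotic kinase, differed by −3.50, and Ccna2, cyclin A2, by −3.03. Prc1, which bundles microtubules of the spindle midzone, was at 2.46 to 2.49 on day 56, the level of control probe sets without a target, and at 6.47, 7.83, 4.63 and 6.47 on day 7. Racgap1, a regulator of cytokinesis, and Cdkn3, a phosphatase that acts on cyclin-dependent kinases and is not on the list, were likewise at control level on day 56 (means 2.66 and 2.44), against means of 5.74 and 6.82 on day 7.

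Genes of the replication machinery were among both the called and the uncalled members. Pcna, the sliding clamp of DNA polymerase, was lower by 0.48 (SE 0.10, adjusted p = 0.00723 in limma), and Mcm2 of the replicative helicase had a difference of −1.05 that did not pass (adjusted p = 0.189). Top2a, a topoisomerase of dividing cells, had overlapping groups, at 5.76 to 6.21 on day 56 and 5.89 to 9.35 on day 7 (−1.79, adjusted p = 0.0426), and another of its probe sets gave −0.58 (adjusted p = 0.32). In the fit of the 8 arrays alone 2 members of the list passed, Cdk1 and Prc1 (adjusted p = 0.0457 and 0.0375). Without day 7 replicates 2 and 3 the list held 24 lower members, and without day 7 replicate 3 alone 34.

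Spag5, whose product is a protein of the mitotic spindle, went the other way. It was at 9.60, 9.68, 10.04 and 9.84 on day 56, against 6.15, 6.41, 7.07 and 6.88 on day 7 (3.16, SE 0.38, adjusted p = 5.84e-05 in limma), and its 1 probe set was also high in sham cord (8.82 ± 0.17, SD, n = 4). The highest difference of any member of the mitosis list, of which Spag5 is not part, was 0.08.

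**Figure D2:**
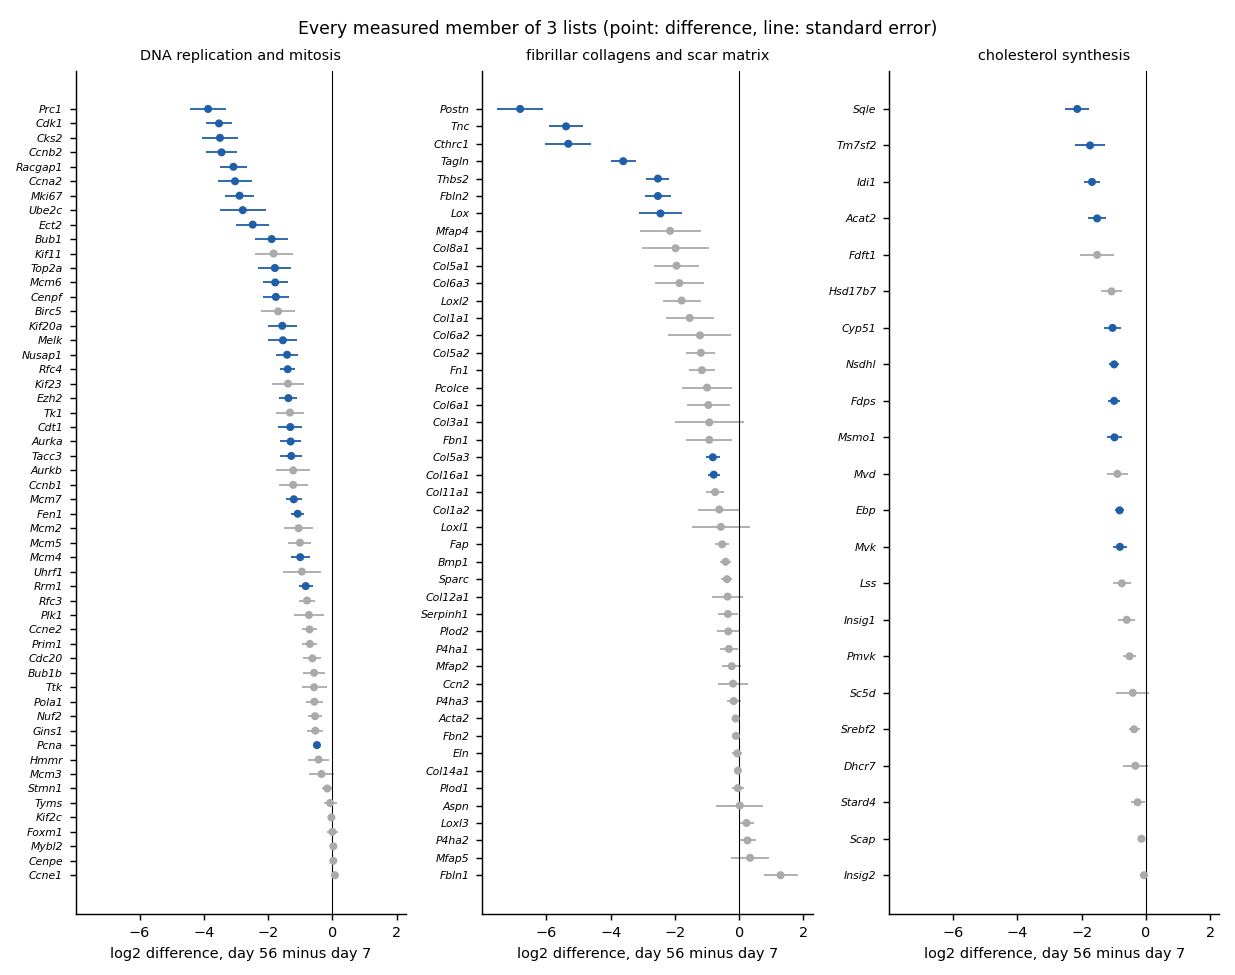
Log2 difference, day 56 minus day 7, of every measured member of 3 lists, with its standard error as a line. Blue members had an adjusted p under 0.05 and grey ones did not. In the mitosis list 50 of 54 members lie below 0, in the scar matrix list 40 of 45, and in the cholesterol list 22 of 22.

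The matrix of the scar was lower on day 56 in some of its genes. Of 45 measured genes of the list of fibrillar collagens and scar matrix, 9 were lower, 7 of them by at least 1, and 0 were higher (limma; 1 higher at an unadjusted p under 0.05, 0 by the ordinary t). The median of the list was −0.75. The 9 genes are Postn, Tnc, Cthrc1, Tagln, Thbs2, Fbln2, Lox, Col5a3 and Col16a1, and 6 genes of the list passed in the fit of the 8 arrays alone.

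Postn, the gene of periostin, which binds collagen and is made by activated fibroblasts, had the largest difference of all genes, in either direction. It was at 4.22, 3.06, 4.11 and 4.26 on day 56, against 11.76, 12.74, 8.75 and 9.68 on day 7 (−6.82, SE 0.71, adjusted p = 1.31e-05 in limma). Tnc, the gene of tenascin C, was at 5.64, 5.19, 5.10 and 5.81 on day 56, against 10.23, 11.67, 10.41 and 11.00 on day 7 (−5.39, SE 0.54, adjusted p = 7.94e-06 in limma). Cthrc1, a secreted protein of injured vessels and activated fibroblasts, was at 3.79, 3.24, 3.39 and 3.22 on day 56, against 9.65, 10.80, 6.74 and 7.73 on day 7 (−5.32, SE 0.72, adjusted p = 0.000211 in limma). In none of these genes did any day 56 value come near the lowest day 7 value. Tagln, an actin-binding protein of smooth muscle and contractile fibroblasts, was at 7.25 to 8.16 on day 56, against 10.10 to 12.13 on day 7 (−3.61, SE 0.39, adjusted p = 2.36e-05 in limma). Acta2, the actin of the same cells, did not pass, with a difference of −0.11 (adjusted p = 0.529).

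Thbs2 and Fbln2, genes of the matrix proteins thrombospondin 2 and fibulin 2, were each lower by 2.53 (SE 0.36 and 0.41). Lox, the enzyme that cross-links collagen, was at 5.58 to 8.50 on day 56 and 9.20 to 10.96 on day 7 (−2.45, adjusted p = 0.0388), and at −4.39 in another probe set (adjusted p = 0.0102). The abundant collagens did not pass the test. Col1a1 was at 11.04, 11.63, 10.35 and 12.02 on day 56, against 13.52, 14.20, 11.81 and 11.69 on day 7 (−1.54, SE 0.75, adjusted p = 0.229 in limma), and Col3a1 had a difference of −0.93 (SE 1.08, adjusted p = 0.584). Fn1, fibronectin, differed by −1.16 (adjusted p = 0.104), and Sparc, a collagen-binding glycoprotein, by −0.38 (adjusted p = 0.189). In Col1a1, Col3a1 and Fn1 the values of the 2 days overlapped.

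Among 16 basement membrane genes, 2 passed, both lower. Col4a2, a chain of collagen IV, differed by −2.11 (adjusted p = 0.00981) and its partner Col4a1 by −1.69 (adjusted p = 0.0446), and neither passed without day 7 replicates 2 and 3 (adjusted p = 0.0583 and 0.103). Of 29 proteoglycans and related genes of the scar, Vcan, the gene of versican, was lower by 1.41 (adjusted p = 0.0093), although 1 of its probe sets gave −0.39, and Tnr, tenascin R, was lower by 1.00 (adjusted p = 0.00276). Of 33 matrix proteases and inhibitors, 3 proteases were lower and 2 inhibitors higher, against 4.78% lower and 1.99% higher among all genes. Mmp2, gelatinase A, was at 5.84 to 6.90 on day 56, against 7.09 to 9.23 on day 7 (−1.93, adjusted p = 0.00673). Adamts4, which cuts aggrecan and versican, was at 10.06 to 10.41 on day 56, against 11.16 to 11.69 on day 7 (−1.28, SE 0.12, adjusted p = 3.88e-06 in limma), and Mmp19 was lower by 0.71. Timp4 and Timp3, inhibitors of such proteases, were higher by 1.65 and 1.09 (adjusted p = 0.03 and 0.0429). Neither passed without day 7 replicates 2 and 3 (adjusted p = 0.0639 and 0.137). Neither passed in the limma fit of the arrays of days 56 and 7 alone (adjusted p = 0.11 and 0.0761). Timp1 and Timp2, inhibitors of the same list, had differences of −1.13 and 0.13 that did not pass (adjusted p = 0.0792 and 0.702). The inhibitors thus did not all differ in the same direction. Ctsk, the collagen-degrading cathepsin K, had a difference of 1.18 that did not pass (adjusted p = 0.136).

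**Figure D3:**
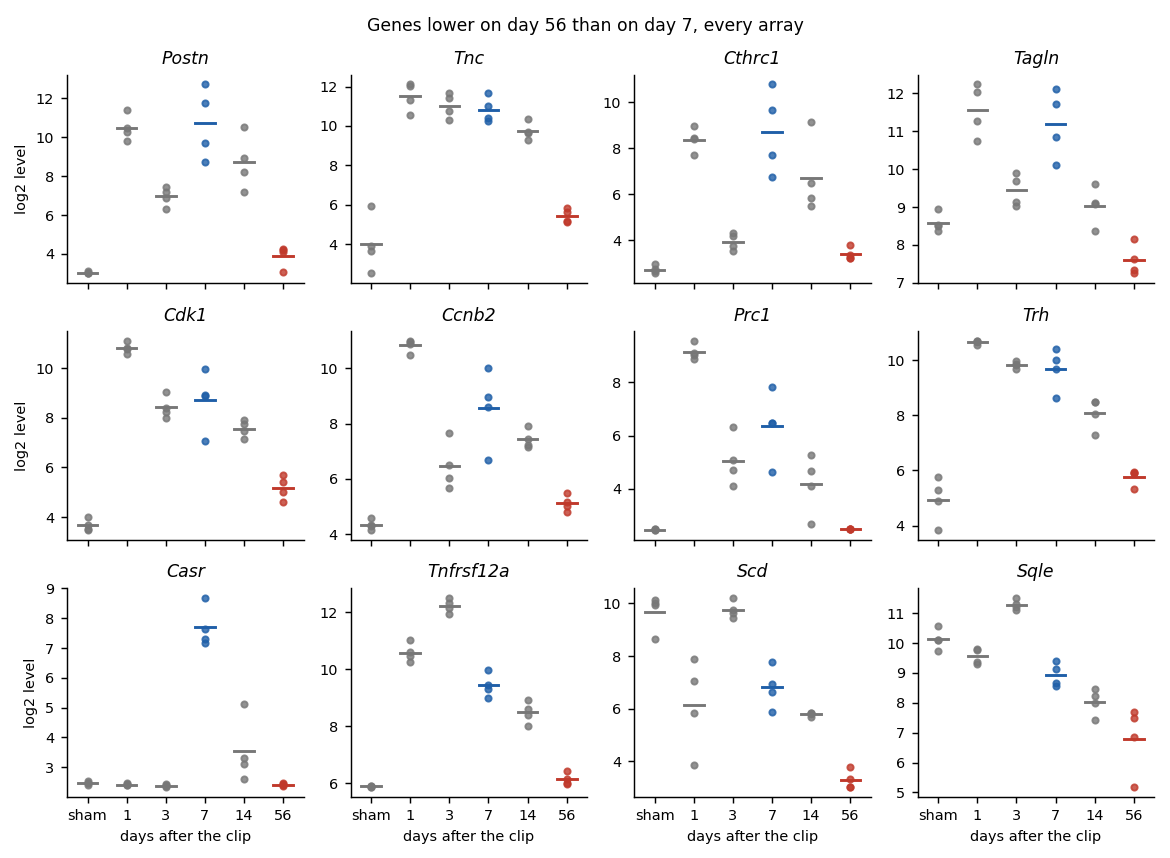
Log2 level, on all 24 arrays, of 12 genes that were lower on day 56 than on day 7, with days after the clip on the horizontal axis (not to scale) and sham cord at the left. Points are single rats, bars are means of 4, red is day 56 and blue is day 7. Casr stands apart on day 7, at 7.18 to 8.69, and Scd and Sqle lie 6.39 and 3.33 below sham on day 56.

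Cholesterol synthesis was lower on day 56 along much of the pathway. Of 22 measured genes of the list 10 were lower, 5 of them by at least 1, and 0 higher (limma; 0 higher also at an unadjusted p under 0.05 and by the ordinary t), with a median of −0.85 and all 22 differences below 0. Only 2 of the 10 passed in the fit of the 8 arrays alone, Nsdhl and Ebp (adjusted p = 0.0396 and 0.0422), and 9 were lower without day 7 replicates 2 and 3. The mean level of the 22 genes was 7.73 to 7.89 on day 56, against 8.15 to 9.16 on day 7 and no less than 9.67 in sham cord.

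These genes are switched on together by sterol-regulated factors of the SREBP family, which act beside NF-Y on CCAAT boxes. CCAAT stood on either strand in the 250 bases ahead of the start in 14 of the 18 listed genes with a promoter in the RefSeq table (77.8%), in 7 of the 9 that were lower and in 7 of the 9 that did not pass, against 34.3% of all promoters. From the lower genes, 4 were picked by hand, and all 4 hold CCAAT. Sqle (−2.14), Tm7sf2 (−1.74) and Acat2 (−1.52) differed by more than Fdps, Nsdhl and Msmo1 (−0.99, −0.99 and −0.98) and are not shown. The stretch just ahead of the start of the 4 genes is given with CCAAT and ATTGG in capitals (GRCr8, strand of the gene), so that the boxes can be compared.
Idi1 (chr17:66547525-66547669, minus strand): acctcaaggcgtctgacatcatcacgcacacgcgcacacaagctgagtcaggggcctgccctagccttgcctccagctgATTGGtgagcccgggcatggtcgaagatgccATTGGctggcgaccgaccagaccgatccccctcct
Fdps (chr2:176804817-176804961, minus strand): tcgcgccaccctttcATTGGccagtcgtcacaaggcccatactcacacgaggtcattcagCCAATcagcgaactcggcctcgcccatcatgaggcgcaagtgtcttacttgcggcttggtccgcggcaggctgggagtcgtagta
Nsdhl (chrX:155817215-155817359, plus strand): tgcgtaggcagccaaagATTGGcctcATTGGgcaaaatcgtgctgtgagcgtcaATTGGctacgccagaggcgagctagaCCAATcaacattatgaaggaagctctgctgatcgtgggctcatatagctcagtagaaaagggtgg
Msmo1 (chr16:29746968-29747112, plus strand): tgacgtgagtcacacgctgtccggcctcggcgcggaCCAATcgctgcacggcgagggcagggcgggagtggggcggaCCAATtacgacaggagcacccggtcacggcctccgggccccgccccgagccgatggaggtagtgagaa

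In the order of the pathway, Acat2, which joins 2 acetyl-CoA at its entry, was lower by 1.52 (adjusted p = 0.00221), and Idi1, which makes the building block dimethylallyl diphosphate, was at 8.81, 8.61, 8.66 and 8.53 on day 56, against 10.04, 9.51, 11.03 and 10.74 on day 7 (−1.68, SE 0.26, adjusted p = 0.000791 in limma). Fdps, which makes farnesyl diphosphate, was lower by 0.99 (adjusted p = 0.0023). Sqle, the squalene epoxidase that limits the later part of the pathway, was at 5.18, 6.86, 7.5 and 7.68 on day 56, against 8.67, 8.56, 9.39 and 9.14 on day 7 (−2.14, SE 0.38, adjusted p = 0.00255 in limma). Of the enzymes that trim lanosterol to cholesterol, Cyp51 was lower by 1.04, Msmo1 by 0.98, Nsdhl by 0.99, Ebp by 0.82 and Tm7sf2 by 1.74. Mvk, mevalonate kinase, was the remaining lower member (−0.81, adjusted p = 0.0282). In this list day 7 replicate 3 had the highest mean and day 7 replicate 2 the lowest of its group, the reverse of the mitosis list. Fdft1 and Hsd17b7, of the same pathway, had differences of −1.52 and −1.07 that did not pass (adjusted p = 0.109 and 0.0577).

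Other lipid genes moved both ways. Scd, the desaturase that makes oleic acid, was at 3.34, 3.78, 3.02 and 3.04 on day 56, against 6.64, 5.87, 7.79 and 6.95 on day 7 (−3.52, SE 0.59, adjusted p = 0.0014 in limma). Srebf1, which encodes the factor that drives fatty acid synthesis, was at 11.76, 11.91, 11.33 and 12.01 on day 56, against 9.36, 9.33, 9.32 and 9.13 on day 7 (2.47, SE 0.21, adjusted p = 1.45e-06 in limma), with 2.59 in another probe set. Cidea, a protein that fuses lipid droplets, was at 4.20, 4.08, 3.93 and 4.63 on day 56 and at the level of control probe sets on day 7 (1.85 to 2.00), with a difference of 2.30 (adjusted p = 1.4e-06). Plin4, which coats lipid droplets, was at 6.50, 4.93, 6.31 and 5.40 on day 56, against 2.95, 2.44, 3.91 and 3.81 on day 7 (2.51, adjusted p = 0.00894). Cyp27a1, which makes an oxysterol from cholesterol, and Cyp7b1, which breaks oxysterols down, were higher by 1.97 (SE 0.29, adjusted p = 0.000434) and 2.19 (SE 0.25, adjusted p = 3.59e-05). Lcat, which esterifies cholesterol on lipoproteins, was higher by 1.94 (adjusted p = 0.00964, and 0.126 without day 7 replicates 2 and 3). The sterol exporters Abca1 and Abcg1 were high on both days, with means of 13.18 and 12.15 on day 56 and 13.20 and 11.77 on day 7, and did not pass (adjusted p = 0.986 and 0.252). Scd, Plin4 and Cidea stand in the list of 18 adipose tissue genes, of which 9 were at control level on both days and no others were called.

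Genes of secreted peptides and hormones were found in both directions, and no list of them was tested. Trh, the gene of thyrotropin-releasing hormone, was at 5.31, 5.94, 5.91 and 5.92 on day 56, against 8.62 to 10.42 on day 7 (−3.91, SE 0.36, adjusted p = 3.88e-06 in limma). Calcb, which encodes the beta form of calcitonin gene-related peptide, was at 4.17, 3.64, 4.43 and 3.47 on day 56, against 8.64, 8.65, 6.61 and 6.62 on day 7 (−3.70, SE 0.51, adjusted p = 0.000254 in limma). Its sister gene Calca, at 5.42 to 6.89 on day 56 and 6.71 to 10.22 on day 7, did not pass (−1.81, adjusted p = 0.196). Vgf, a precursor of neuronal peptides, was lower by 2.58 (SE 0.25, adjusted p = 6.73e-06), and Inhba, the activin A subunit, by 2.09 (adjusted p = 0.00673), whereas Inhbb, the activin B subunit, was higher (adjusted p = 0.000408), with a mean of 4.52 on day 56 and of 2.35 on day 7, which is at control level, so that the size of its difference is not exact.

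Of 49 genes of growth, stress and regeneration, 2 were lower and 2 higher, against 4.78% lower and 1.99% higher among all genes. Tnfrsf12a, the receptor of the cytokine TWEAK, was at 5.97, 6.01, 6.45 and 6.14 on day 56, against 9.32, 9.0, 9.45 and 9.98 on day 7 (−3.29, SE 0.20, adjusted p = 2.76e-08 in limma). Dpysl4, a collapsin response mediator of growing axons, was at 3.81, 3.23, 4.27 and 3.80 on day 56, against 7.45, 6.35, 6.71 and 8.18 on day 7 (−3.40, SE 0.34, adjusted p = 7.02e-06 in limma). In both genes the groups did not overlap, and the SD on day 7 was 0.41 for Tnfrsf12a and 0.81 for Dpysl4. Ntrk2, the receptor of brain-derived neurotrophic factor, and Igfbp2, a binding protein of insulin-like growth factors, were higher by 1.04 and 1.68 (adjusted p = 0.0397 and 0.0326), and neither passed without day 7 replicates 2 and 3 (adjusted p = 0.107 and 0.214).

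Tgfb3, a transforming growth factor, was at 3.81, 3.86, 3.83 and 3.99 on day 56, against 7.91, 7.33, 6.06 and 8.40 on day 7 (−3.55, SE 0.50, adjusted p = 0.000315 in limma). Casr, the calcium-sensing receptor, was at control level on day 56 (2.36 to 2.45) and at 7.65, 7.18, 7.29 and 8.69 on day 7 (adjusted p = 9.98e-08 in limma). Casr was also at 2.46 in sham cord and at 2.42 and 2.37 on days 1 and 3 (means of 4), and on day 14 its arrays lay at 2.61, 5.13, 3.10 and 3.29, so that day 7 stood apart from every other day. Pnlip, the gene of pancreatic lipase, was at 8.27, 7.26, 8.11 and 6.67 on day 56, against 11.22, 10.68, 11.16 and 11.69 on day 7 (−3.61, SE 0.54, adjusted p = 0.000448 in limma).

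Several genes of the oligodendrocyte lineage were lower on day 56, most of them by less than 1. Of 25 measured genes of myelinating oligodendrocytes 6 were lower and 0 higher (limma; 0 higher also at an unadjusted p under 0.05), and of 12 genes of their precursors 4 were lower and 0 higher (0 at an unadjusted p under 0.05). The medians were −0.44 and −0.27, and in the fit of the 8 arrays alone 0 and 2 members passed. Sox10 is a call of both lists, and the precursor genes Vcan and Tnr are also the proteoglycan calls given above, so that these counts are not separate. Nkx2-2, a factor of the differentiating lineage, was at 10.18, 9.87, 10.38 and 10.37 on day 56, against 11.67, 11.28, 11.26 and 11.96 on day 7 (−1.34, SE 0.20, adjusted p = 0.000443 in limma). Ugt8, which makes the myelin lipid galactosylceramide, was lower by 1.21 (adjusted p = 0.022), and Gal3st1, which sulfates it, by 0.79 (SE 0.13, adjusted p = 0.00126). Gjb1, a gap junction protein of oligodendrocytes, was lower by 1.03, Mag, the myelin-associated glycoprotein, by 0.80, Sox10, a factor of the whole lineage, by 0.78 and Cnp, a myelin enzyme, by 0.56. The bulk protein of myelin did not pass, since Mbp had a difference of −0.12 (adjusted p = 0.246).

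Differences of about 2 were found in 3 genes outside the lists, chosen after their values were seen. Enpp6, a phosphodiesterase known from newly formed oligodendrocytes, was at 6.57, 7.15, 7.85 and 6.29 on day 56, against 8.97, 8.31, 9.5 and 9.76 on day 7 (−2.17, SE 0.33, adjusted p = 0.000539 in limma). Tmem163, a zinc transporter, was lower by 2.25 (SE 0.36, adjusted p = 0.000948). Nfasc, neurofascin of the node of Ranvier, was lower by 1.99 (adjusted p = 0.000747), although its probe sets ranged between −2.21 and −0.10. The mean level of the 25 myelin genes was 9.97 to 10.16 on day 56 and 9.91 to 10.86 on day 7, where replicate 2 was the lowest.

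Among the genes higher on day 56, those with the largest differences belong to no single list. Ppp1r1b, which encodes the phosphatase inhibitor DARPP-32, was at 9.46, 9.96, 10.03 and 9.80 on day 56, against 3.51, 3.36, 5.63 and 4.0 on day 7 (5.69, SE 0.78, adjusted p = 0.000254 in limma). Its relative Ppp1r1a, inhibitor 1 of the same phosphatase, was higher by 2.92 (adjusted p = 0.00451). Coch, a secreted protein of the cochlea, was at 8.03, 8.67, 9.06 and 10.03 on day 56, against 5.17, 2.62, 4.03 and 2.52 on day 7 (5.36, SE 0.80, adjusted p = 0.000461 in limma). Cyp26b1, which degrades retinoic acid, was at 10.99, 10.17, 9.09 and 11.44 on day 56, against 6.96, 6.91, 6.20 and 4.80 on day 7 (4.21, SE 0.60, adjusted p = 0.000315 in limma). Ecrg4, the gene of the secreted peptide augurin, was at 8.00, 8.57, 7.95 and 9.30 on day 56, against 4.28, 4.13, 4.47 and 4.42 on day 7 (4.13, SE 0.31, adjusted p = 3.64e-07 in limma).

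Others of the 15 higher genes with the largest differences were Slc25a34, a mitochondrial carrier (3.52), Calml4, a calmodulin-like protein (3.35, SE 0.29, adjusted p = 1.57e-06), and Mpzl2, an adhesion protein of epithelia (3.01). Cdh1, E-cadherin, was higher by 2.82 with a spread of 4.67 to 8.14 on day 56, against 2.80 to 3.65 on day 7. Sned1 and Efemp1, which encode matrix proteins, were higher by 2.71 and 2.55 (adjusted p = 0.00163 and 0.0304), so that not all matrix genes were lower. Asgr1, a lectin receptor known from liver, and Rorb, a nuclear receptor, were higher by 2.62 and 2.56.

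Lists for meninges and vessels held called genes of both directions, and that for ependyma only higher ones. Over all genes, 4.78% were lower and 1.99% higher. Of 30 genes of fibroblasts and meninges, Ptgds, the prostaglandin D synthase of the meninges, Igfbp2 and Ccn3 were higher and Spp1 lower. Ptgds was at 15.18, 15.30, 15.15 and 15.66 on day 56, against 14.42, 12.61, 14.33 and 13.30 on day 7 (1.66, SE 0.40, adjusted p = 0.0181 in limma), and it did not pass without day 7 replicates 2 and 3 (adjusted p = 0.0723). The mean level of these 30 genes was 7.85 to 9.10 on day 56 and 7.13 to 8.47 on day 7, and its part in the higher matrix genes was not tested. Of 19 genes of pericytes and smooth muscle 1 was higher and 2 were lower: Myh11, the myosin of smooth muscle, was higher by 2.14 (adjusted p = 0.00602), Tagln was lower by 3.61, as given above, and Mcam, a marker of pericytes, was lower by 1.17 (adjusted p = 0.0247). Aplnr, the receptor of the peptide apelin in endothelium, was at 8.57, 9.27, 9.14 and 9.70 on day 56, against 6.57, 5.96, 6.91 and 7.20 on day 7 (2.51, SE 0.46, adjusted p = 0.00303 in limma), and Apln, its ligand, was lower by 1.57 (adjusted p = 0.0306). These were the called members among 28 genes of angiogenesis and endothelium. Foxj1, the factor that makes motile cilia, and Dynlrb2, a dynein light chain, were higher by 0.91 and 1.21 among 17 ependymal genes, of which 0 passed without day 7 replicates 2 and 3 (adjusted p = 0.138 and 0.232 for these genes) and 0 in the fit of the 8 arrays alone.

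Of 24 astrocyte genes 1 was higher and 1 lower, against 1.99% higher and 4.78% lower among all genes. Agt, angiotensinogen, was at 12.10, 12.54, 12.13 and 11.72 on day 56, against 9.35, 8.67, 11.06 and 10.47 on day 7 (2.23, SE 0.60, adjusted p = 0.0326 in limma). Nes, the filament nestin of immature and reactive cells, was at 8.20 to 8.37 on day 56, against 9.45 to 10.39 on day 7 (−1.67, SE 0.26, adjusted p = 0.000777 in limma). Gfap differed by 0.25 and did not pass (adjusted p = 0.258). Pax6, a factor of neural precursors and some astrocytes, was higher by 2.11 (adjusted p = 0.00508). The mean level of the 24 genes was 10.17 to 10.28 on day 56 and 9.43 to 10.13 on day 7, and without day 7 replicates 2 and 3 Agt did not pass (adjusted p = 0.0847).

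**Figure D4:**
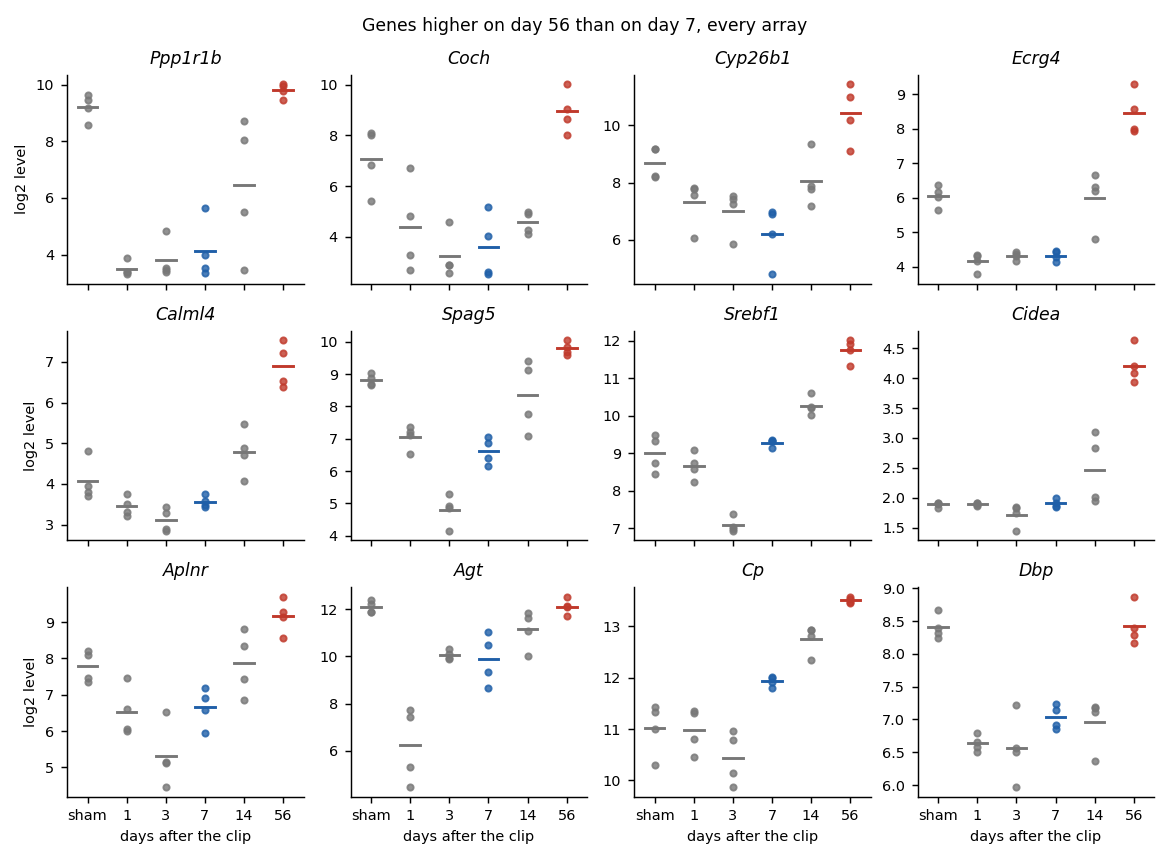
Log2 level, on all 24 arrays, of 12 genes that were higher on day 56 than on day 7, with days after the clip on the horizontal axis (not to scale) and sham cord at the left. Points are single rats, bars are means of 4, red is day 56 and blue is day 7. On day 56 Agt and Dbp were 0.01 and 0.03 above sham cord, and Ecrg4, Srebf1, Cidea and Cp were 2.40, 2.75, 2.32 and 2.49 above it.

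Immune genes mostly did not pass the test. None of 36 interferon-stimulated genes (0 also at an unadjusted p under 0.05), none of 15 genes of MHC class I loading (2 lower at an unadjusted p under 0.05) and none of 47 genes of phagocytosis and lysosome (4 higher and 4 lower at an unadjusted p under 0.05) differed in limma, and none did by the ordinary t or in the fit of the 8 arrays alone. Of the phagocytosis list 1 gene passed as higher without day 7 replicates 2 and 3, 1 as higher after quantile normalization, and 3 as lower after median centring. Cd68, a lysosomal protein of macrophages, was at 11.37 to 11.88 on day 56 and 10.31 to 13.03 on day 7 (−0.01, SE 0.64, adjusted p = 0.991 in limma), and Gpnmb, which marks lipid-laden macrophages, had means of 15.19 and 15.01 (adjusted p = 0.852). Of 24 genes of microglia and macrophages, P2ry12, the purine receptor of resting microglia, was the only one to pass, lower by 0.96 (adjusted p = 0.0469), and its other bright probe set did not (adjusted p = 0.151).

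Of 28 complement genes 3 were lower and 1 higher in limma, with a median of 0.05, and none passed in the fit of the 8 arrays alone. Over all genes, 4.78% were lower and 1.99% higher. C5ar1, the receptor of C5a, was at 5.53, 5.77, 4.87 and 5.25 on day 56, against 8.53, 10.06, 5.55 and 7.45 on day 7 (−2.54, SE 0.65, adjusted p = 0.0247 in limma). C1qc and C1qb, chains of the first component, were lower by 1.29 and 0.84, and the chain C1qa did not pass (−0.45, adjusted p = 0.234). Clu, the complement inhibitor clusterin, was higher by 1.5 (adjusted p = 0.00799). In C5ar1, C1qc and C1qb the groups overlapped through day 7 replicate 3, which was also the lowest array of day 7 in the 24 microglia and macrophage genes (9.79, against 10.05 to 10.13 on day 56). Of 12 genes of MHC class II presentation RT1-DMa was lower by 1.18 (adjusted p = 0.023), and Cd74, the invariant chain, had a difference of 0.51 (adjusted p = 0.519). Of 56 chemokines and cytokines, Cxcl14 and Ccl19 were higher by 1.46 and 1.03, and Spp1, osteopontin, and Tgfb3 were lower. Spp1 differed by −1.08 (adjusted p = 0.0432).

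Iron and energy genes gave a few calls each, against 4.78% lower and 1.99% higher among all genes. Tfrc, the transferrin receptor, was at 9.65, 9.30, 9.59 and 9.45 on day 56, against 11.14, 11.88, 10.55 and 10.82 on day 7 (−1.60, SE 0.23, adjusted p = 0.000408 in limma). Cp, the ferroxidase ceruloplasmin, was at 13.45, 13.58, 13.53 and 13.47 on day 56, against 11.80 to 12.02 on day 7 (1.57, SE 0.25, adjusted p = 0.001 in limma), and all 3 of its probe sets passed. Bdh2, a dehydrogenase that makes a mammalian siderophore, was higher by 1.42 (adjusted p = 5.84e-05). Among 33 genes of glycolysis and hypoxia, Ldha, lactate dehydrogenase A, was lower by 1.38 (adjusted p = 0.00346), Tpi1, Gpi and Pgam1 were lower by 0.59, 0.52 and 0.45, and Slc16a1, which carries lactate, was higher by 0.90. Of 37 genes of the mitochondrial respiratory chain 5 were lower and 0 higher (1 higher at an unadjusted p under 0.05), none by as much as 1. After quantile normalization 0 of the 37 were lower and 1 was higher, after median centring 17 were lower, and without day 7 replicates 2 and 3 none was.

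Neuronal genes did not differ in the test. Of 39 genes none passed in limma (2 higher and 0 lower at an unadjusted p under 0.05, and none by the ordinary t or in the 8 arrays alone), and the median was 0.33. Snap25, a protein of the presynaptic membrane, was at 11.75 to 12.99 on day 56 and 11.10 to 13.46 on day 7 (0.48, SE 0.66, adjusted p = 0.652 in limma), and Nefl, the light neurofilament, had a difference of 1.23 (SE 0.81, adjusted p = 0.316). Both were below sham cord on both days, Snap25 by 1.80 on day 56 and 2.28 on day 7. Of 10 motor neuron genes, Gfra1, a receptor of glial-derived neurotrophic factor, was higher by 0.62 and Calcb lower, as given above.

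Lists for cells of neighbouring tissues and blood gave few calls. Of 35 T and NK cell genes, 12 neutrophil genes, 12 red cell genes and 11 choroid plexus genes none passed in limma, by the ordinary t or in the 8 arrays alone, and at an unadjusted p under 0.05 the first list had 6 higher, the second 1 higher and 3 lower, the third 1 higher and the last 3 higher. After median centring 1 neutrophil gene and 1 T and NK cell gene passed as lower. Most genes of these lists lay at the level of the control probe sets on both days, 26 of 35 in the T and NK cell list. Cd37, of 19 B and plasma cell genes, was lower by 0.95, Tnni2, of 29 skeletal muscle genes, by 1.11 with day 56 at control level, and Spp1 was the single call among 21 bone and cartilage genes. Sox10 was the single call among 20 Schwann cell genes. The muscle list was uneven on day 7. The mean level of its 29 genes was 3.62 and 3.97 in replicates 1 and 3, and 2.83 and 2.94 in replicates 2 and 4. On day 56 it was 2.89 to 3.03, and 19 of the 29 genes were at control level on both days. The part of muscle in the other differences was not tested.

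**Figure D5:**
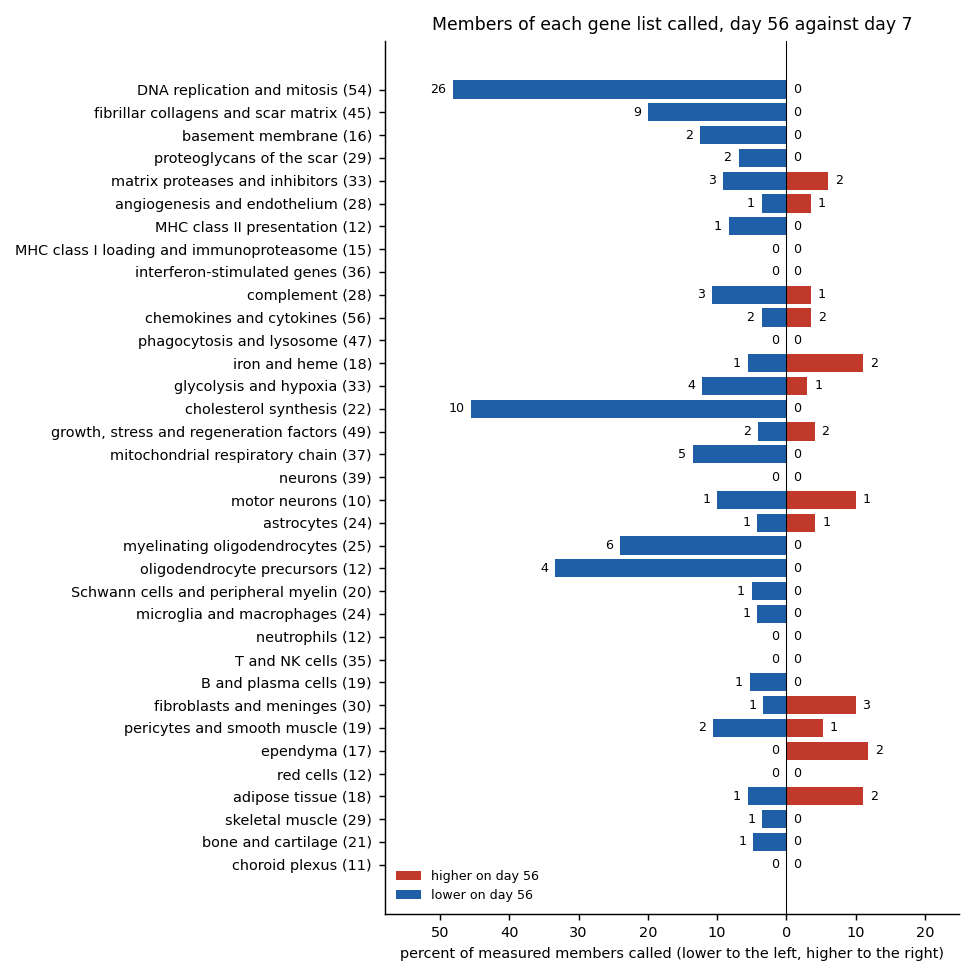
Share of the measured members of each of 35 gene lists that were called in limma (adjusted p under 0.05), lower on day 56 to the left in blue and higher to the right in red, with the number of genes beside each bar and the number measured in brackets. The shares of lower members were greatest in DNA replication and mitosis (26 of 54), cholesterol synthesis (10 of 22) and oligodendrocyte precursors (4 of 12). Of all genes, 4.78% were lower and 1.99% higher. Some genes stand in several lists.

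Of the 331 genes with a difference of at least 1, 322 (97.3%) had a day 14 mean between the means of day 7 and day 56. Over all genes the share was 36.3%. The 331 genes were chosen for means that lie far apart on these 2 days, so that their share is a description. The median gene had reached 50.3% of its change by day 14, 45.1% for the higher and 54.2% for the lower genes. In limma 28.0% of all genes differed between day 14 and day 7 and 0.338% between day 56 and day 14, against 6.77% between day 56 and day 7. Of the 331 genes 132 passed the first comparison and 38 the second in the same direction. Both share arrays with the main one. The highest of the control probe sets with no target in rat averaged 3.38 on day 14, against 3.06 on day 7 and 3.19 on day 56. Each day was pre-processed apart by the methods, and the part of that step in the 28.0% was not tested.

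The timing differed between the groups as a description. The median lower member of the mitosis list had gone 60.7% of the way by day 14, of the cholesterol list 44.8%, and of the scar matrix list 37.1%. Casr and Dpysl4 had gone 78.7% and 69.6% of the way (day 14 minus day 7: −4.17 and −2.36, adjusted p = 1.22e-05 and 0.00375), and Tfrc 87.3%. Among the genes whose change came later were Mmp2 with 2.0%, Vgf with 15.1% and Tnc with 20.1%: Tnc differed by −1.08 between day 14 and day 7 (adjusted p = 0.151) and by −4.31 between day 56 and day 14 (adjusted p = 0.000724), and Mmp2 by −0.04 and −1.90. Coch, with 18.5%, Asgr1, with 16.3%, and Cidea, with 24.4%, were late among the higher genes.

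The levels of these genes in sham cord are given as a description, since the day 7 and day 56 arrays that chose the genes also enter the comparisons with sham, and a gene that was lower on day 56 is by that choice more often above sham on day 7. Against sham, 32.1% of all genes differed on day 56 and 53.5% on day 7. Of the 195 genes lower on day 56 by at least 1, 158 had been above sham and 10 below it on day 7, and on day 56 44 were above and 49 below. Of the 136 higher genes, 6 had been above and 69 below sham on day 7, and on day 56 65 were above and 8 below. All 26 lower members of the mitosis list were above sham on day 7 (median 2.71), and 11 still were on day 56 (median 0.54), among them Cdk1 (1.52, adjusted p = 0.00688) and Mki67 (1.78, adjusted p = 0.00406). The 9 matrix genes were all above sham on day 7 (median 3.46) and 3 of them on day 56 (median 0.80). The cholesterol genes differed in this: all 10 were below sham on day 56 (median −2.36), and 9 were below and 1, Ebp, above it on day 7 (median −1.20). Scd was 6.39 below sham on day 56 and 2.87 below on day 7. Ppp1r1b did not pass against sham on day 56 (0.60, adjusted p = 0.667) and was 5.09 below it on day 7, and Spag5 was 2.19 below sham on day 7, with a difference of 0.97 on day 56 (adjusted p = 0.0626).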

How the data were processed

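The authors deposited a log2 summary for every probe set of 24 Affymetrix rat arrays, made with affy 1.12.2 and GCRMA as their processing notes say, and the methods state that arrays of a time point were pre-processed together and apart from other days. A shift between days can therefore come from that step, and the values used here had no normalization added.

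Of 31099 probe sets, 57 of them controls, 20832 have 1 symbol in the platform annotation, 436 have several and 9831 have none. Each of the 14218 genes was read from 1 probe set, that of the greatest average across the 24 arrays. All 24 arrays were fitted in 6 groups with limma 3.58.1 in R 4.3.3 (lmFit, contrasts, eBayes without trend, 18 residual and 1.08 prior degrees of freedom), and the Benjamini-Hochberg adjustment of each contrast covered all 20832 single-symbol probe sets, with calls at 0.05. Each group has 4 rats. The test was run on simulated data: of 66 to 67 probe sets changed by 0.5, 1 and 2 between day 56 and day 7 among 20832, 47.8, 83.6 and 92.4% were recovered, with 9 false calls. These values were drawn independently from normal distributions, with the same SD of a probe set in every group. The greater spread of day 7 and genes that move together were not simulated. The number of false calls in the real data therefore cannot be read from it. The precision of an array is limited by its signal over background and by the number of arrays.

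The 35 gene lists (863 of 1006 genes measured), the comparisons and the named genes were chosen with earlier results of these data known. Genes are named where they are among the 15 higher and 15 lower with the largest difference (adjusted p under 0.05, groups not overlapping, a mean of at least 5 in 1 group), where they are called list members (up to 4) or the brightest uncalled ones (up to 2), or where earlier results named them. A further 54 of the 143 genes in the tables were chosen after their values were seen, among them Enpp6, Nfasc, Tmem163, Srebf1, Cyp27a1, Cyp7b1, Lcat, Vgf, Inhba, Inhbb, Pax6, Mki67 and the clock genes. Promoters are the first start per gene in a RefSeq table of the build GRCr8, and their annotation differs from that of the array.

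Alternatives were a fit of the 8 arrays alone, a mean-variance trend, robust moderation, quantile and median scaling, the ordinary t of the linear model without moderation, a filter on dim probe sets, adjustment over all probe sets, averaging the probe sets of each gene, the replicate number as a block, and arrays left out. The deviations of same-numbered rats of days 56 and 7 had correlations between −0.208 and 0.364, and the labels tie these rats by nothing but the number. Scripts ran in Python 3.11.15 with pandas 2.3.3, numpy 2.4.6 and matplotlib 3.10.9.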

Additional observations from a re-analysis of the deposited data

Results flagged for a closer look

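In a group of 4 arrays a value was marked where its gap to the nearest other array took more of the range of the group than Dixon's critical value for 4 samples, which chance alone does in about 1 of 20 groups. Of 286 groups of 4 values (143 genes on days 56 and 7), 13 were marked, so that the number is near what chance gives.

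On day 56, replicate 2 was marked in 4 genes. Postn was at 3.06, against 4.11 to 4.26 in the other rats, Ube2c at 3.70 against 4.52 to 4.68, Abca1 at 12.37 against 13.34 to 13.51, and Tm7sf2 at 5.37 against 4.40 to 4.53. Replicate 4 was marked in Timp3 (13.11, against 12.45 to 12.53), Gfra1 (8.23, against 8.09 to 8.11) and Col5a3 (8.39, against 7.81 to 7.91), and replicate 1 in Trh (5.31, against 5.91 to 5.94) and in Prc1 (2.46, against 2.49), which is at the level of control probe sets.

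On day 7, replicate 3 was marked in Rorb (6.84, against 4.64 to 4.81), replicate 2 in Sox10 (10.62, against 11.00 to 11.03), and replicate 4 in Hlf (7.71, against 8.91 to 9.08) and Selenbp1 (2.09, against 2.47 to 2.53).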

How the results depend on the processing

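When the 8 arrays were fitted alone, 255 genes differed in place of 963, 100 in place of 331 with a difference of at least 1, 2 in place of 26 lower mitosis genes and 2 in place of 10 lower cholesterol genes. With a difference of at least 1.5, 159 genes were left. When each array was left out in turn, 581 to 1610 genes differed, 241 to 532 of them by at least 1, with 15 to 34 lower mitosis genes, 6 to 12 lower matrix genes and 6 to 11 lower cholesterol genes. The highest count, 1610, came without day 7 replicate 3, and 894 of the 963 genes are among these. Each of the other arrays gave a lower count when left out, with fewer samples fitted. With the replicate block 812 genes differed, 287 by at least 1, and this is given as a value only, since the correlations of same-numbered rats were −0.014, −0.00971, 0.364 and −0.208. Split by direction, 1191 genes were lower after median centring and 445 after quantile normalization, against 680, and 151 were higher without day 7 replicates 2 and 3, against 283. The lower genes of the respiratory chain numbered 0 after quantile normalization, 0 without day 7 replicates 2 and 3 and 17 after median centring, against 5. With the filter on dim probe sets 97.4% of genes had day 14 between the other days, against 97.3%.

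Of 121 called genes named, none changed sign under any of these settings. Calls were lost for 72 in the fit of the 8 arrays alone, 38 when 1 array was left out, 24 without day 7 replicates 2 and 3, 13 after quantile normalization, 12 with the replicate block, 5 with the ordinary t of the linear model, which has no moderation, 3 each with adjustment over all probe sets and with probe sets averaged per gene, and 2 after median centring. Why day 7 varied more than day 56 was not tested.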

Other observations

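Genes of the circadian clock were noticed among the higher genes and listed after their values were seen, so their count is a description. Of 17 such genes 16 were measured, 5 were higher on day 56 and 1 lower. Dbp, an output factor of the clock, was at 8.40, 8.87, 8.17 and 8.28 on day 56, against 6.85, 7.14, 6.91 and 7.23 on day 7 (1.40, SE 0.22, adjusted p = 0.000743 in limma). Hlf, a relative of Dbp, was higher by 1.93 (adjusted p = 0.0106), and the repressors Per3, Per2 and Nr1d2 by 1.05, 0.81 and 0.71. Nfil3, which opposes Dbp on the same sites, was lower by 1.00 (adjusted p = 0.00963). Bmal1 and Clock, the activators of the loop, had differences of −0.43 and 0.13 that did not pass (adjusted p = 0.258 and 0.503). For Dbp and Per3 the difference lay between day 14 and day 56 (1.47 and 1.10, adjusted p = 0.00233 and 0.0218), and between day 7 and day 14 they differed by −0.07 and −0.05. Per2 and Nr1d2 did not pass without day 7 replicates 2 and 3. No hour of sampling was found in the labels or the methods.

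A few genes of sulfur chemistry and matrix sulfation were higher on day 56 and were also chosen after their values were seen. Selenbp1, a methanethiol oxidase, was at 4.53, 4.75, 3.47 and 5.60 on day 56, against 2.52, 2.47, 2.53 and 2.09 on day 7, at control level (adjusted p = 0.000408). Cbs, which makes cystathionine from homocysteine, was higher by 1.54 (adjusted p = 0.00475), with groups that overlapped through day 7 replicate 3, and Sulf1, which removes sulfate from heparan sulfate chains, was higher (adjusted p = 0.000617), with a mean of 5.01 on day 56 and of 3.00 on day 7, at control level, so that the size of the difference is not exact.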
